A study of Mus musculus with 4 samples.

Results

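The tau kinase genes are 10 genes chosen by name from the 55403 features in the tables: Gsk3b, Cdk5 and its activator Cdk5r1, Mark1, Mark2, Mark3 and Mark4, Ttbk1, Dyrk1a and Fyn. The rule uses no measured value, although the genes were proposed with earlier results of these data known, and all 10 symbols were found once each. Nuclei were taken from frozen, pooled hippocampus of 3 groups of littermates and sequenced with a droplet-based 3′ kit, which counts unique molecular identifiers (UMIs) per gene and nucleus. WT mice (1 library) are labelled as wild type. PS19 mice (2 libraries) are on a B6;C3 background and carry the transgene Tg(Prnp-MAPT*P301S)PS19Vle, human 1N4R tau with the P301S change under the prion protein promoter. TG_PS19 mice (1 library) carry that transgene and SORLA-Rosa26, in which a CMV/β-actin promoter drives the sorting receptor SORLA. Ages and the number of animals in a pool are not given in the sources used here, and it is not stated there if the 2 PS19 libraries are different pools, so their spread may be technical. The comparison of PS19 with WT addresses what goes with mutant tau, and that of TG_PS19 with PS19 what raised SORLA adds.

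Tau is a microtubule-binding protein, and phosphate groups on its serine, threonine and tyrosine residues lower its affinity for microtubules. GSK3β (Gsk3b) and the CDK5 complex modify serines and threonines that precede prolines, and CDK5 is active when bound to p35, the product of Cdk5r1. The MARK kinases (Mark1 to Mark4) modify KXGS motifs in the microtubule-binding repeats. TTBK1 is a tau-tubulin kinase described as neuronal, DYRK1A can prime tau for GSK3β, and FYN is a Src-family tyrosine kinase that binds the proline-rich part of tau and is also used by oligodendrocytes during myelination. These are statements about proteins, whereas the values below are transcript levels in nuclei, which do not measure kinase activity or phosphorylated tau.

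The libraries held 4643 to 12762 barcodes and 20064025 to 48670533 UMIs, at median depths of 2643 (WT), 2996 and 3708.5 (PS19) and 2659 (TG_PS19) UMIs per nucleus. The filters left 11458 nuclei of WT, 4467 and 4728 of the PS19 libraries and 8963 of TG_PS19, and any pair of libraries shared 4 to 26 barcodes. Classes were clusters named from marker lists, so each name means resemblance by markers. There were 13 units with at least 50 nuclei in every library, which held 90.3% to 96.7% of the nuclei of a library. They were dentate granule neurons, CA1 and CA3 pyramidal neurons (1 cluster in which both marker lists were raised), inhibitory neurons, Cajal-Retzius neurons, astrocytes, oligodendrocyte precursors, oligodendrocytes, microglia, endothelial, mural and fibroblast nuclei, and a pair of clusters without a name. Cluster 2 was led by Enpp6, Anln and Hapln2 and raised 7 of 7 oligodendrocyte markers; it stayed unnamed because Enpp6 is on the list of newly formed oligodendrocytes. Cluster 13 was led by Vwc2l and Tshz2 and raised 3 of 7 markers of other excitatory neurons. Unnamed nuclei made up 7.36% of TG_PS19, 3.08% of WT and about 0.6% of each PS19 library (0.604% and 0.571%). TG_PS19 also differed in sex: 50.7% of its nuclei had Xist and no Y-linked UMI and 24.4% the reverse, against at most 0.253% and at least 68.5% in the other libraries. Raised SORLA and sex therefore cannot be told apart over whole TG_PS19 sums. Human MAPT had 0 UMIs in all 13 WT units and 18.4 to 28.1 CPM (counts per 1000000, a gene's share of all UMIs summed over a class) in dentate granule neurons of the other libraries.

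The genes lie on 9 chromosomes of mouse build GRCm38, and all 10 are protein-coding. Gsk3b (ENSMUSG00000022812.14) spans chr16:38089001-38246084 and Ttbk1 (ENSMUSG00000015599.9) chr17:46442448-46487675 on the minus strand. Fyn (ENSMUSG00000019843.14) spans chr10:39368855-39565381, Cdk5 (ENSMUSG00000028969.10) chr5:24418241-24423530 and Cdk5r1 (ENSMUSG00000048895.13) chr11:80477023-80481184. Genes on the opposite strand include Gm38251 over Mark1, Gm17227 over Mark2 and Gm16365 over Fyn. Whether counting used strand is not given in the sources used here, so it is not known if reads of these pairs were counted apart. In dentate granule neurons Gm38251 was counted at 30.3 to 49.5 CPM and Gm17227 at 67.3 to 72.7 CPM. Gm17227 was at 70.8 to 104 CPM in microglia, the class where Mark2 was highest. It was at 44.2 to 57.9 CPM in oligodendrocytes and 37.9 to 60.4 CPM in oligodendrocyte precursors. Over Fyn, the antisense gene Gm16365 reached 7.78 to 21.5 CPM in oligodendrocyte precursors and at most 5.85 CPM in oligodendrocytes, dentate granule neurons and microglia. The other genes counted over Gsk3b, Mark3, Ttbk1, Dyrk1a and Fyn reached at most 8.45 CPM in these 4 classes. Gm26904, which overlaps Ttbk1, had no matching feature and was not analysed here, and no annotated gene overlaps Cdk5, Cdk5r1 or Mark4.

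Promoter sequence was printed for Gsk3b and Ttbk1 because they are the contrast described next, a gene found in every class and a gene nearly missing from several. RefSeq (GRCm38.p6) held promoters of 7 of the 10 genes, and for both of these its start is the start in GENCODE. The 250 bases before the start are given 5′ to 3′ on the gene's strand, with CCAAT boxes, GC boxes (spelled GGGCGG) and TATA boxes (spelled TATAAA) in capitals, searched on both strands. Gsk3b lies on the plus strand (chr16:38088751-38089000) and Ttbk1 on the minus strand (chr17:46487676-46487925).
Gsk3b: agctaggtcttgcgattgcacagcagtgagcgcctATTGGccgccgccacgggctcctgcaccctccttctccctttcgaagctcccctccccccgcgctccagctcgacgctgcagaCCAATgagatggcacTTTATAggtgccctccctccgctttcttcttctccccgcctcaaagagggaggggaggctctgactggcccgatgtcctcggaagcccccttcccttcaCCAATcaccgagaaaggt
Ttbk1: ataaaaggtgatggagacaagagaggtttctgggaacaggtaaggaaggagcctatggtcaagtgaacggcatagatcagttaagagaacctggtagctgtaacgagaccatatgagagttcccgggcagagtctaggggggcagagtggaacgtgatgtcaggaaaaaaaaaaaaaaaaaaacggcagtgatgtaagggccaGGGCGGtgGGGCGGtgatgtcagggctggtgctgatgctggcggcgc
The Gsk3b window held 3 CCAAT boxes, 1 TATA box on the opposite strand and no GC box, with 15 CpG dinucleotides. The Ttbk1 window held 2 GC boxes, neither of the other motifs and 9 CpG dinucleotides. Of all 32851 promoter windows of this length, 33.8% held a CCAAT box, 12.4% a TATA box and 32.7% a GC box, and the median number of CpG was 6. These matches describe the letters in the windows and were not tied to any measured level.

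Levels differed between classes far more for some kinases than for others. Values are CPM of the summed class, given as mean ± SD over the 4 libraries, and are compared within a gene only, since a 3′ count depends on the gene. They are descriptions without a test, because the classes were made from the same nuclei, although the 10 genes were kept out of the clustering. Over the 13 units the highest mean was 2.0 to 2.6 times the lowest for Mark2, Dyrk1a, Gsk3b, Mark3 and Mark4. It was 4.39 times for Cdk5, 8.90 for Fyn and 15.3 for Cdk5r1. Mark1 and Ttbk1 get no such ratio, because their lowest units held 0 to 3 UMIs per library (Mark1 in microglia) and 1 UMI in all (Ttbk1 in mural nuclei). Neighbours in these orders mostly overlapped: of 12 neighbouring pairs per gene, at most 3 were separate in range.

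**Figure D1:**
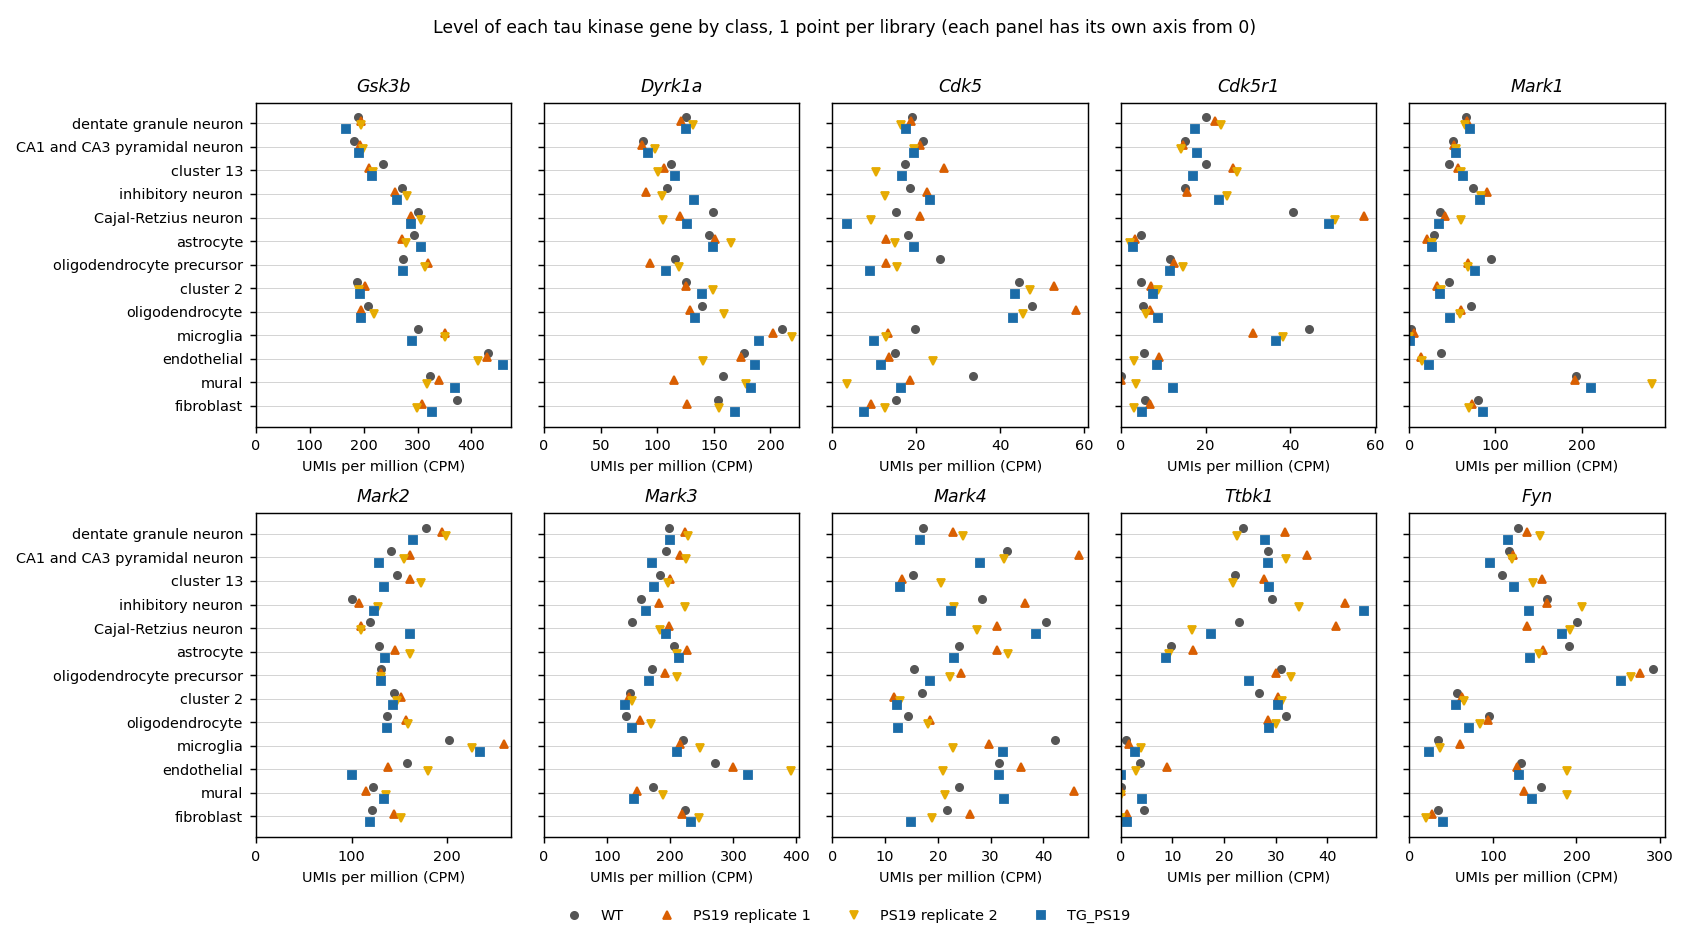
Level of each gene (x axis, CPM, from 0, each panel with its own scale) in 13 classes (y axis), with 1 point per library. Mark1 stands out in mural nuclei (193 to 282 CPM), Cdk5 in oligodendrocytes and cluster 2 (42.9 to 58.1 CPM), and Ttbk1 is near 0 in microglia, endothelial, mural and fibroblast nuclei (0 to 8.92 CPM).

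Gsk3b, which encodes the proline-directed kinase GSK3β, had its lowest means in dentate granule and pyramidal neurons. Oligodendrocytes and cluster 2 overlapped them in range. In dentate granule neurons it was counted at 190.2 CPM in WT, 196 and 195 in the PS19 libraries and 167 in TG_PS19. Endothelial nuclei were at 431 CPM in WT, 428 and 413 in PS19 and 459 in TG_PS19, above every other unit in every library. The order ran from endothelial (433 ± 19.2) over mural (338 ± 23.4), fibroblast (327 ± 33.1) and microglial nuclei (323 ± 32.1) to CA1 and CA3 pyramidal (191 ± 7.16) and dentate granule neurons (187 ± 13.5). Just above these neurons came oligodendrocytes (204 ± 11.7) and cluster 2 (194 ± 6.09). Endothelial nuclei were separate from mural nuclei, and inhibitory neurons (268 ± 10.6) from cluster 13 (219.9 ± 11.2); all other neighbours overlapped. Dyrk1a, the priming kinase, had its highest level in microglia (206 ± 12.3, range 190.0 to 219) and its lowest in CA1 and CA3 pyramidal neurons (91.1 ± 5.25, range 86.8 to 98.3).

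Cdk5 and its activator did not share a class of highest level. Cdk5 was counted in oligodendrocytes at 47.5 CPM in WT, 58.1 and 45.3 in PS19 and 42.9 in TG_PS19. Dentate granule neurons were at 19.0 CPM in WT, 18.6 and 16.4 in PS19 and 17.4 in TG_PS19. The oligodendrocyte level was thus 2.46 to 3.12 times the dentate level in the 4 libraries, and cluster 2 (47.0 ± 4.25) was at the oligodendrocyte level (48.4 ± 6.70). These were separate from all 11 other units, which ran from 20.4 ± 1.05 in CA1 and CA3 pyramidal neurons to 11.0 ± 3.43 in fibroblasts and overlapped along the order. Cdk5r1, which encodes p35, was lower in oligodendrocytes (6.70 ± 1.46) than in dentate granule neurons (20.9 ± 2.70), at 0.26 to 0.50 times that level. It was highest in Cajal-Retzius neurons (49.4 ± 6.92, from 11 to 16 UMIs per library) and in microglia, at 44.4 CPM in WT, 31.3 and 38.2 in PS19 and 36.6 in TG_PS19. Microglia were separate from the next unit, cluster 13 (22.8 ± 4.99). Astrocytes were lowest at 3.23 ± 1.09. The Cdk5r1 level of microglia was read in a class whose makeup differs between groups, as given below.

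Among the MARK kinases, Mark1 had the steepest profile. Mural nuclei were at 194 CPM in WT, 193 and 282 in PS19 and 211 in TG_PS19. Endothelial nuclei, the neighbouring cells of the vessel wall, were at 37.2, 13.4, 14.95 and 22.9 CPM in the same order, from 3 to 20 UMIs. Mural nuclei were therefore 5.22 to 18.9 times higher in the 4 libraries. Microglia held 0 to 3 Mark1 UMIs per library (2.10 ± 2.08 CPM), and this was the only member and class pair of Mark1 that did not pass the filter on low counts. Inhibitory neurons (82.6 ± 6.55), fibroblasts (76.7 ± 7.28) and oligodendrocyte precursors (76.7 ± 12.5) followed mural nuclei and overlapped with each other. Mark2 was highest in microglia (230.0 ± 23.3) and second in dentate granule neurons (184 ± 15.8), which were separate from each other, and lowest in inhibitory neurons (115 ± 12.8). Mark3 was highest in endothelial nuclei (321 ± 51.6) and lowest in cluster 2 (135 ± 5.09) and oligodendrocytes (148 ± 16.6). Mark4 was highest in CA1 and CA3 pyramidal neurons (35.1 ± 8.07) and lowest in cluster 2 (13.4 ± 2.40), and no neighbours in its order were separate.

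Ttbk1 was highest in inhibitory neurons, and its range in oligodendrocytes overlapped that in dentate granule neurons. Inhibitory neurons were at 29.3 CPM in WT, 43.5 and 34.5 in PS19 and 47.1 in TG_PS19. Oligodendrocytes were at 32.1 CPM in WT, 28.5 and 30.1 in PS19 and 28.8 in TG_PS19, below inhibitory neurons in 3 of 4 libraries. Dentate granule neurons were at 23.7 CPM in WT, 31.8 and 22.4 in PS19 and 27.9 in TG_PS19. Oligodendrocyte precursors (29.7 ± 3.52) and cluster 2 (29.7 ± 2.01) lay close to oligodendrocytes (29.9 ± 1.62). Astrocytes were at 10.5 ± 2.38, and endothelial, microglial, fibroblast and mural nuclei between 3.91 ± 3.71 and 1.02 ± 2.03. Mural nuclei held 1 Ttbk1 UMI in all, in TG_PS19, and a count of 0 in the other libraries allows up to 7.18 (WT), 13.8 and 10.7 CPM (PS19) at 3 UMIs. Free RNA in droplets can give such low counts, and its part was not tested.

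Fyn had its highest level in the smallest class of the oligodendrocyte lineage. Newly formed oligodendrocytes, named from Bcas1, Enpp6, Itpr2, Tcf7l2 and Bmp4, comprised 9 WT, 20 and 32 PS19 and 24 TG_PS19 nuclei, too few for the tests. Fyn was counted there at 4654 CPM in WT, 4627 and 4229.6 in PS19 and 2815 in TG_PS19. The exact 95% Poisson intervals were 4033 to 5344 for WT, 4250 to 5030 for PS19 replicate 1, 3962 to 4510 for PS19 replicate 2 and 2547 to 3105 for TG_PS19. In each library this was 11.1 to 16.7 times the level in oligodendrocyte precursors, which were at 292 CPM in WT, 276 and 266 in PS19 and 254 in TG_PS19. Oligodendrocytes followed at 95.2, 94.5, 84.3 and 72.0 CPM and cluster 2 at 57.1, 63.5, 65.9 and 56.0 CPM. The level was therefore high in 1 narrow class and lower before and after it. The TG_PS19 value lay below the 3 others and outside their intervals, which cover counting error only. No single nucleus gave more than 21.4% of a library's Fyn UMIs in this class.

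After each nucleus was thinned to 1000 UMIs, the mean was 4.78 Fyn UMIs per newly formed nucleus in WT, 4.65 and 3.90 in PS19 and 3.46 in TG_PS19, and 0.27, 0.23, 0.23 and 0.26 per precursor. Only 1 newly formed nucleus, of PS19 replicate 2, was shallower and left out. With doublets kept, the class held 4 to 21 nuclei per library and Fyn was at 3520.0 CPM in WT, 4052 and 3388 in PS19 and 2231 in TG_PS19, so that TG_PS19 was again the lowest. Among the 13 larger units, precursors (272 ± 16.3) were separate from Cajal-Retzius neurons (179 ± 26.4), and microglia (39.0 ± 15.7) and fibroblasts (30.6 ± 9.03) were lowest.

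**Figure D2:**
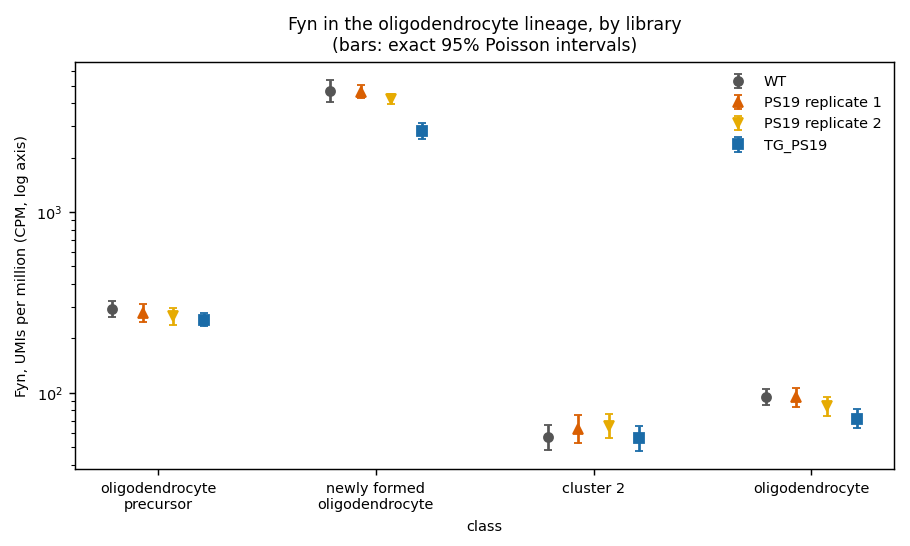
Fyn level (y axis, CPM, log axis) in 4 classes of the oligodendrocyte lineage (x axis), with 1 point per library and exact 95% Poisson intervals. Newly formed oligodendrocytes sit at 2815 to 4654 CPM, and every other class of the lineage lies between 56.0 and 292 CPM.

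Other kinases of the group followed other courses along the lineage. Cdk5 was 1.86 to 4.85 times higher in oligodendrocytes than in their precursors in the 4 libraries, and Gsk3b was 0.61 to 0.76 times as high. Mouse Mapt, which encodes tau, was counted in oligodendrocytes at 1905 CPM in WT, 2247 and 2272 in PS19 and 1899 in TG_PS19. Dentate granule neurons were at 293, 317, 324 and 260.4 CPM in the same order. Human MAPT can be counted in part under Mapt, and this was not tested. In oligodendrocytes human MAPT itself was at 17.5 and 23.8 CPM in PS19 and 16.6 in TG_PS19.

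Genes whose levels over classes and libraries were most like each kinase were found by Pearson correlation over 52 class sums (13 units in 4 libraries) among 13031 genes. The sums share libraries and depth, so these are descriptions. Ttbk1 was most like Gdpd1 (r = 0.93), Amph (0.93) and Akap6 (0.92), Gsk3b most like Yes1 (0.92), and Cdk5r1 most like Basp1 (0.89). Cdk5 was most like Kctd3 (0.85) and Lgi3 (0.85), Dyrk1a most like Akap10 (0.85), and Fyn most like Cdh2 (0.83). Mark3 was most like B4galt4 (0.79), Mark2 most like Nmt1 (0.74) and Mark4 most like Vps13d (0.68). For Mark1 the first gene was Gm38251 (0.92), its antisense partner, followed by Trpc1 (0.80). Between members, the largest positive correlations were those of Gsk3b with Dyrk1a (r = 0.54) and with Mark3 (0.53). Ttbk1 ran against Gsk3b (−0.71) and Dyrk1a (−0.69).

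In the comparison of PS19 with WT, no tau kinase gene was called in any class. Of the 130 pairs of gene and class, 119 passed edgeR's filter on low counts; the 11 others had few UMIs. They were Ttbk1 in microglia, endothelial, mural and fibroblast nuclei, Mark1 in microglia, Cdk5r1 in endothelial, mural and fibroblast nuclei, and Cdk5 in mural, endothelial and Cajal-Retzius nuclei. Cdk5 held 1 to 14 UMIs per library in these small classes, at a mean of 12.2 to 17.9 CPM, so its level there was not low beside that of dentate granule neurons (17.9). With edgeR's quasi-likelihood test and Benjamini-Hochberg adjustment within a class, 0 of 119 were called at 0.05, against 2.64% of all 154316 pairs of gene and class. At an unadjusted p under 0.05 there were 8 (6.72%, against 10.8% of all pairs), and DESeq2 called 0 of 114 (0.28% of all pairs). The smallest adjusted p was 0.130, for Mark4 in dentate granule neurons. The 95% interval of the fold change lay within a 2-fold change in either direction for 93 of 119 pairs (54.1% of all pairs), and the median size of a change was 0.19 on the log2 scale (0.25 over all pairs).

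The fold changes leaned upwards by a small amount. In PS19, 77 of 119 pairs (64.7%) were higher than in WT, with a median log2 fold change of 0.07, against 50.6% and 0.01 over all pairs. Mark2 was higher in 12 of 13 classes (median 0.14) and Mark3 in 12 of 13 (median 0.13). PS19 nuclei were deeper than WT nuclei, for example 8581 and 10142 against 6488 UMIs at the median in dentate granule neurons. After thinning every nucleus to 1000 UMIs, 46 of 91 pairs were higher (51.1% of all pairs) with a median of 0.01, and Mark2 was higher in 9 and Mark3 in 10 of 13 classes. Fewer pairs passed the filter after thinning, for example Cdk5r1 in 3 classes in place of 10 and Mark4 in 5 in place of 13. The 2 counts are therefore not over the same pairs, and the part of depth was not tested. With library totals in place of TMM scaling, 74 of 119 pairs were higher (49.9% of all pairs).

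**Figure D3:**
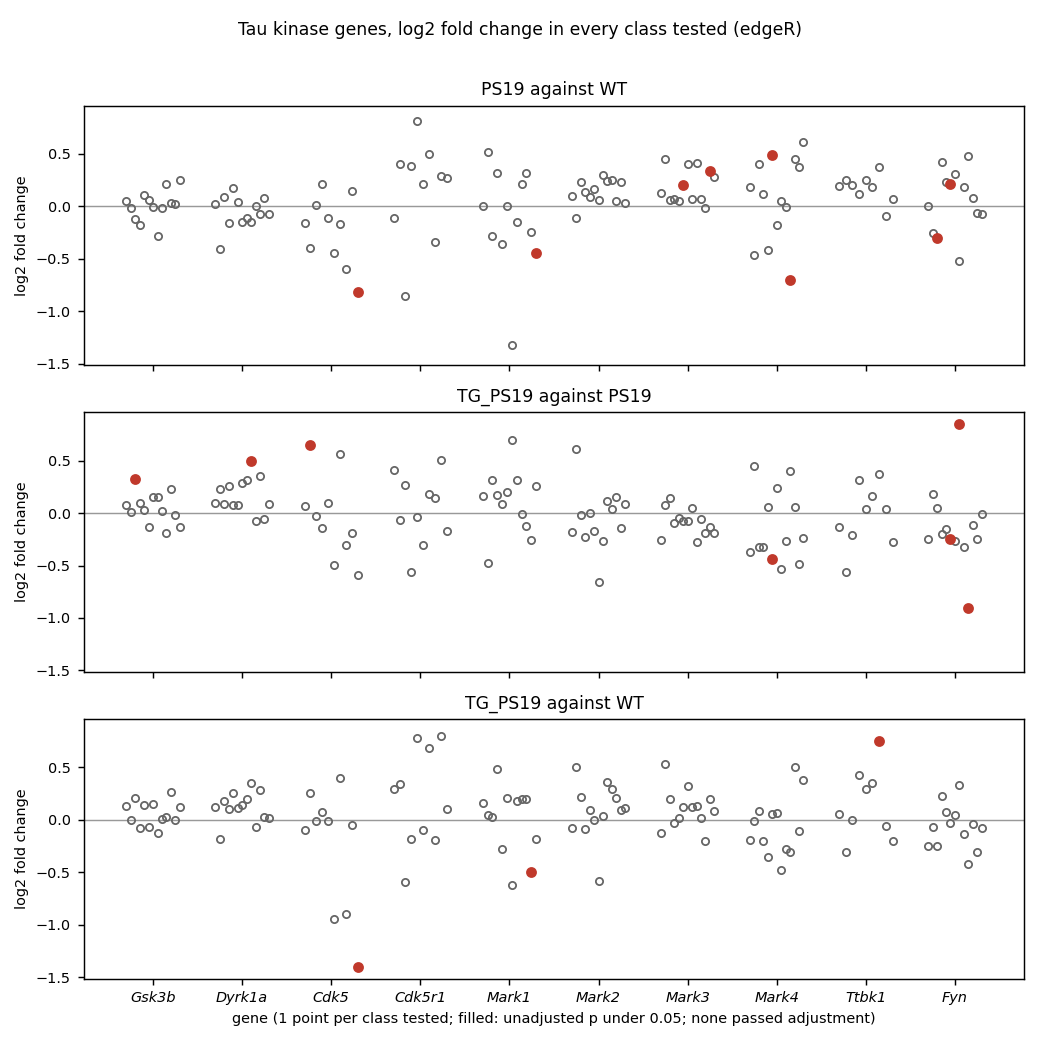
Log2 fold change (y axis) of each gene (x axis), with 1 point per class tested, in the 3 comparisons. Filled points have an unadjusted p under 0.05 (8, 7 and 3 of 119); none passed adjustment.

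Dentate granule neurons, the class with the most UMIs in every library (4344775 to 11247045), are described gene by gene. Mark4 was at 16.8 normalized CPM in WT, 22.4 and 24.8 in PS19 and 17.5 in TG_PS19. Both PS19 libraries were above both others, an arrangement whose share over all genes of the class was not counted. The log2 fold change of PS19 against WT was 0.49 (SE 0.18, unadjusted p 0.007, edgeR adjusted p 0.130). That of TG_PS19 against PS19 was −0.43 (SE 0.19, edgeR adjusted p 0.150). Fyn showed the same arrangement at 128 normalized CPM in WT, 138 and 156 in PS19 and 125 in TG_PS19, with log2 fold changes of 0.21 (SE 0.10, edgeR adjusted p 0.361) and −0.24 (SE 0.11, edgeR adjusted p 0.148). Mark3 was at 194 normalized CPM in WT, 219 and 227 in PS19 and 211 in TG_PS19, a change of 0.20 for PS19 against WT (SE 0.10, edgeR adjusted p 0.354). After thinning, Mark4 was −0.028 for PS19 against WT (SE 0.69) and 1.23 for TG_PS19 against PS19 (SE 0.64), with edgeR adjusted p-values of 0.995 and 0.428. These values rest on 16 UMIs in WT, 6 and 4 in PS19 and 21 in TG_PS19, so they neither keep nor overturn the arrangement. Cdk5 (−0.11, 95% interval −0.47 to 0.26), Gsk3b (0.06, −0.14 to 0.26), Dyrk1a (0.04, −0.17 to 0.25) and Mark1 (0.01, −0.22 to 0.24) had intervals on both sides of 0. In this class 3.25% of 17396 genes were called for PS19 against WT and 9.54% for TG_PS19 against PS19.

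**Figure D4:**
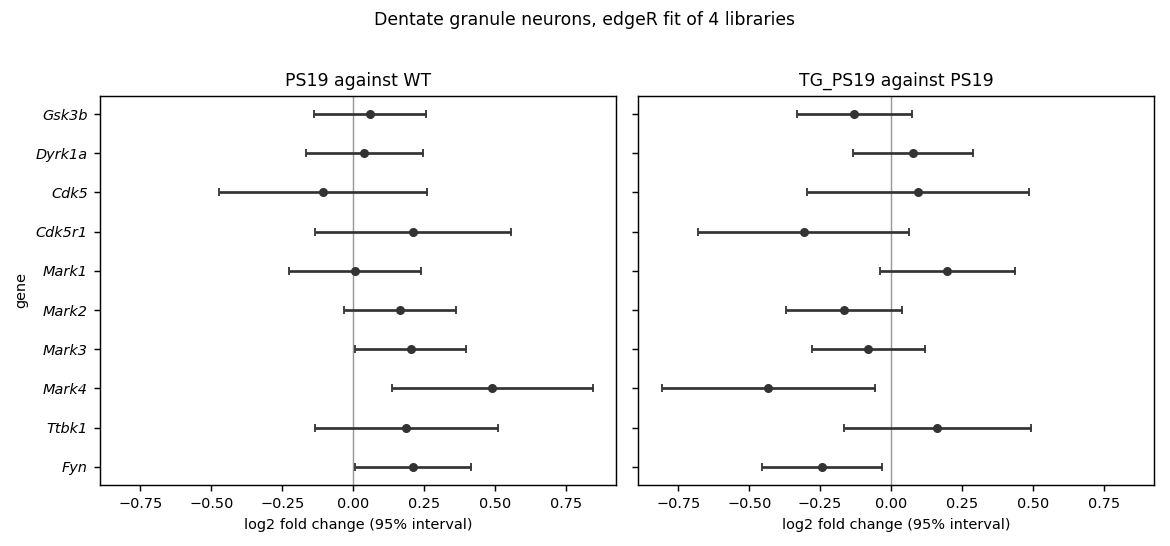
Log2 fold change with its 95% interval (x axis) of the 10 genes (y axis) in dentate granule neurons, for PS19 against WT (left) and TG_PS19 against PS19 (right). Every point lies between −0.43 and 0.49, and no gene was called after adjustment.

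The remaining PS19 against WT pairs with an unadjusted p under 0.05 ran in both directions. Fyn in astrocytes was at 189 normalized CPM in WT and 154 and 152 in PS19 (log2 fold change −0.30, SE 0.13, edgeR adjusted p 0.288). Mark3 in oligodendrocytes was at 128 normalized CPM in WT and 152 and 169.9 in PS19 (0.33, SE 0.14, edgeR adjusted p 0.163). In both cases the PS19 libraries lay on the same side of WT, which their choice by unadjusted p favours. Astrocytes joined mainly 2 clusters whose shares differed, with 2118 WT and 336 and 377 PS19 nuclei in cluster 0 and 500, 251 and 281 in cluster 8, which was led by Gfap and Myoc. Fyn was at 200.1 CPM in WT and 181 and 167 in PS19 in cluster 0, and at 147, 129 and 141 in cluster 8, so the PS19 libraries were below WT in both. Oligodendrocytes were clusters 1 and 4, where Mark3 was at 128.5 CPM in WT and 142 and 155 in PS19, and at 135, 165 and 184. In oligodendrocyte precursors Cdk5 (−0.81, SE 0.40) and Mark1 (−0.44, SE 0.22) were lower, with edgeR adjusted p-values of 0.742 and 0.745, and Cdk5 rested on 33 UMIs in WT and 13 and 20 in PS19. Mark4 in microglia was −0.71 (SE 0.36, edgeR adjusted p 0.248), from 41 UMIs in WT and 18 in each PS19 library.

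With TG_PS19 against PS19, again 0 of 119 pairs were called by edgeR, against 4.41% of all pairs, and 7 (5.88%) had an unadjusted p under 0.05, against 14.3% of all pairs. DESeq2 called 0 of 101 (0.733% of all pairs). Of the 119 pairs, 58 (48.7%, against 48.9% of all pairs) were higher in TG_PS19, at a median log2 fold change of −0.01, and 92 had intervals within a 2-fold change (49.1% of all pairs). Library totals put 45 of 119 higher (37.8%, against 40.3% of all pairs). This scaling moved the median of all genes by −0.03 to −0.17 on the log2 scale, by over 0.1 in 2 classes, and changes here are relative to TMM. By gene, Fyn was lower in 10 of 13 classes (median −0.20) and Dyrk1a higher in 11 of 13 (median 0.09); after thinning these were 9 of 13 lower and 9 of 13 higher.

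Fyn in microglia was at 34.6 normalized CPM in WT, 61.7 and 37.5 in PS19 and 25.7 in TG_PS19. The PS19 libraries were apart from each other, and TG_PS19 lay below both, with 17 UMIs (log2 fold change −0.91, SE 0.40, edgeR adjusted p 0.141). The makeup of microglia differed with the groups: at the higher clustering resolution, a cluster led by Ly86, Fyb and Myo1f held 193 and 211 PS19 nuclei but 20 WT and 11 TG_PS19 nuclei, and a cluster led by Inpp5d and Siglech held 62 and 72 PS19, 560 WT and 396 TG_PS19 nuclei. In the second of these Fyn was at 34.6 CPM in WT, 8.9 and 22.1 in PS19 and 21.8 in TG_PS19, the PS19 values from 1 and 4 UMIs with 95% Poisson intervals of 0.23 to 49.8 and 6.03 to 56.7. In the first it was at 72.7 and 41.3 CPM in PS19. The 11 TG_PS19 nuclei there held 2 Fyn UMIs, too few to be called lower or higher than PS19. Differences within either cluster were not tested, and few UMIs were counted there. Every microglial value here is over a class of unlike makeup whose part in the result was not tested. In fibroblasts Fyn was at 34.4 normalized CPM in WT, 27.8 and 20.4 in PS19 and 43.2 in TG_PS19 (0.85, SE 0.37, edgeR adjusted p 0.306). In astrocytes Cdk5 was at 17.8 normalized CPM in WT, 12.3 and 14.5 in PS19 and 21.3 in TG_PS19 (0.65, SE 0.25, edgeR adjusted p 0.160), and Gsk3b at 290.2, 261, 274 and 334 (0.32, SE 0.13, edgeR adjusted p 0.189). Dyrk1a in inhibitory neurons was at 110.2 normalized CPM in WT, 90.0 and 107 in PS19 and 140.5 in TG_PS19 (0.49, SE 0.24, edgeR adjusted p 0.447). In each of these pairs TG_PS19 lay outside the range of the PS19 libraries, which their choice by unadjusted p favours. The share of all pairs with this position was not counted. Within astrocytes, TG_PS19 was above both PS19 libraries in cluster 0 (Cdk5 19.997 against 14.1 and 13.5 CPM, Gsk3b 323 against 282 and 312), while in cluster 8 Cdk5 (15.1 against 11.7 and 14.1) was above and Gsk3b (241 against 254 and 251) below them. Fyn was the gene called under other settings, in 1 class each: in dentate granule neurons with library totals (−0.34, edgeR adjusted p 0.0172) and in microglia when TG_PS19 was limited to nuclei with a Y-linked UMI, which held 0 Fyn UMIs (edgeR adjusted p 0.0292). Fyn in oligodendrocyte precursors was called with doublets kept (−0.58, edgeR adjusted p 0.0324) but was −0.010 with doublets left out (SE 0.17, edgeR adjusted p 0.995). With doublets kept, the clustering was made anew, precursors numbered 253 to 666 nuclei per library in place of 225 to 556, and newly formed oligodendrocytes 4 to 21 in place of 9 to 32.

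Against WT, TG_PS19 likewise gave 0 of 119 calls by edgeR (1.71% of all pairs) and 0 of 109 by DESeq2 (0.113% of all pairs), and 3 pairs (2.52%) had an unadjusted p under 0.05 (10.4% of all pairs). Cdk5 in oligodendrocyte precursors was at 25.2 normalized CPM in WT, 12.6 and 15.7 in PS19 and 9.47 in TG_PS19, so that WT was above the 3 others (−1.40, SE 0.46, edgeR adjusted p 0.145). Mark1 in oligodendrocytes was at 70.7 normalized CPM in WT, 59.9 and 59.4 in PS19 and 49.98 in TG_PS19 (−0.50, SE 0.19, edgeR adjusted p 0.188). Ttbk1 in inhibitory neurons was at 29.7 normalized CPM in WT, 43.3 and 35.3 in PS19 and 49.9 in TG_PS19 (0.75, SE 0.37, edgeR adjusted p 0.495). Of the 119 pairs, 70 (58.8%, against 49.5% of all pairs) were higher in TG_PS19 than in WT with TMM scaling and 47 of 119 with library totals (39.5%, against 40% of all pairs). This comparison shares its libraries with the 2 above and sets 1 library against 1, with a spread taken from the PS19 pair.

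Other genes that act on tau were read from lists of 27 further kinases, 20 phosphatase subunits and 19 regulators of the members, chosen with earlier results of these data known. For PS19 against WT, 6 pairs of the other kinases were called higher and 5 lower by edgeR (3.72% of 296, median log2 fold change 0.04). Of the phosphatases 0 were higher and 2 lower (0.844% of 237, median −0.02), and of the regulators 2 were higher and 0 lower (0.957% of 209, median 0.05), beside 2.64% and a median of 0.01 over all pairs. DESeq2 called 1 of these 15 pairs, Prkca in astrocytes.

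In dentate granule neurons Lrrk2, a kinase mutated in Parkinson's disease, fell from 32.4 normalized CPM in WT to 17.2 and 19.7 in PS19 (log2 fold change −0.80, edgeR adjusted p 1.8e-04), and TG_PS19 was at 24.5. Brsk2, a kinase of the MARK-related family that acts in neuronal polarity, rose from 22.6 to 36.8 and 33.3 (0.63, edgeR adjusted p 0.0042), with TG_PS19 at 34.2. Camk2a, a calcium-dependent kinase of synapses, rose from 786 to 1031 and 1002 (0.37, edgeR adjusted p 0.0107). In each of the 3, both PS19 libraries lay on the same side of WT, which the choice of called pairs favours. Prkca, a protein kinase C, rose in astrocytes from 345 to 547 and 521 (0.63, edgeR adjusted p 0.0131, DESeq2 adjusted p 0.0381), where TG_PS19 was at 375 (TG_PS19 against PS19 −0.51, edgeR adjusted p 0.0332). In microglia it fell from 597 to 394 and 463 (−0.47, edgeR adjusted p 0.0201), and TG_PS19 was at 632 (TG_PS19 against PS19 0.56, edgeR adjusted p 0.0053). In fibroblasts it rose from 261 to 428 and 399 (0.66, edgeR adjusted p 0.0022), and TG_PS19 was at 506. Prkca was thus higher in PS19 in astrocytes and fibroblasts and lower in microglia, and the differences between classes were not tested. Astrocytes and microglia differed in makeup between groups, as given above. TG_PS19 had 1283 astrocyte nuclei in cluster 0 and 282 in cluster 8, the cluster led by Gfap and Myoc. The part of makeup in the Prkca values was not tested.

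Rcan2, an inhibitor of the tau phosphatase calcineurin, rose in fibroblasts from 84.5 normalized CPM in WT to 175 and 202 in PS19 (1.16, edgeR adjusted p 2.2e-06) and in oligodendrocytes from 137 to 201 and 261 (0.76, edgeR adjusted p 6.9e-06). TG_PS19 was at 196 and 237, above WT in both classes. Ppp1cc, a catalytic subunit of protein phosphatase 1, fell in oligodendrocytes from 111 to 76.2 and 60.9 (−0.70, edgeR adjusted p 1.3e-04). Camk2a and Camk2b were also called lower in oligodendrocytes (−1.56 and −1.52, edgeR adjusted p 4.5e-04 and 0.0014), on 9 to 61 UMIs per library; Camk2b was −2.40 without PS19 replicate 1 and −0.88 without PS19 replicate 2. Markers of dentate and pyramidal neurons were summed in oligodendrocytes as a reduced and as a whole list. The reduced list was lower in every other library than in WT. Without 6 genes that other classes express, the remaining 14 summed to 321 CPM in WT oligodendrocytes, 237 and 275 in PS19 and 266 in TG_PS19, with Iyd at 0 in every library and Galnt3 at 0 in PS19 replicate 2. The whole list of 20, led by genes that oligodendrocytes express, summed to 5892, 5853, 6388 and 6171 CPM. The part of neuronal RNA in these calls was not tested.

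For TG_PS19 against PS19, 2 pairs of the other kinases were called higher and 3 lower, 2 and 2 of the phosphatases and 2 and 2 of the regulators (1.69%, 1.69% and 1.91% of pairs, beside 4.41% of all pairs), and DESeq2 called 0. Ptpn5 (STEP), a tyrosine phosphatase that acts on FYN, rose in inhibitory neurons from 57.1 and 65.7 normalized CPM in PS19 to 138 in TG_PS19, with WT at 55.9 (1.15, edgeR adjusted p 7.4e-04). In dentate granule neurons the phosphatase 2A subunit Ppp2r2c rose from 78.6 and 82.0 to 104 (0.37, edgeR adjusted p 0.0177) and Ppp2r5c fell from 110.3 and 117 to 88.1 (−0.37, edgeR adjusted p 0.0172). Nuak1, an AMPK-related kinase of tau, fell in astrocytes from 10.3 and 11.9 to 3.07 (−1.85, edgeR adjusted p 0.0111), on 15 to 48 UMIs per library. For TG_PS19 against WT, 3 pairs of the other kinases, 2 of the phosphatases and 5 of the regulators were called higher and 0 lower in each list (1.01%, 0.844% and 2.39%, beside 1.71% of all pairs), and DESeq2 called 0.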

How the data were processed

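Single-nucleus RNA sequencing of mouse hippocampus gave 1 WT, 2 PS19 and 1 TG_PS19 library, grouped by their labels. The deposited values are raw UMI counts per gene and barcode, which the authors obtained from Cell Ranger 7.1.0 with GRCm38, per the submitters' processing notes; the annotation release, the use of intron reads and the use of strand are not given in the sources used here. Of the feature identifiers, 54349 of 55403 were in GENCODE M21, as were all members (Mark4 by identifier without its version). The members and all gene lists were chosen with earlier results of these data known.

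Nuclei were kept with at least 500 UMIs, 300 genes and at most 5% mitochondrial UMIs (7 barcodes removed in all), and the highest Scrublet-type doublet scores (0.8% per 1000 barcodes; 172 to 1303 per library) were left out. Scanpy 1.11.5 and leidenalg 0.10.2 gave 29 clusters (2000 variable genes without the members, mitochondrial, sex-linked or transgene genes, 30 components, 15 neighbours, resolution 1.0). A cluster took a class name with at least 4 raised markers (log2 fold of at least 1 with pseudocount 10 CPM, detected in at least 10% of nuclei), or 50% of its list and at least 3, and was left without a name where markers of another class outnumbered its own among its 10 top genes.

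Counts were summed per class and library and fitted with edgeR 4.0.16 (R 4.3.3; filterByExpr, TMM, quasi-likelihood F-test, two-sided) over all genes and all 4 libraries, with Benjamini-Hochberg adjustment within a class at 0.05. The PS19 pair gave the 1 residual degree of freedom, and the lone WT and TG_PS19 libraries were assumed to vary like it; p-values measure only this spread. DESeq2 1.42.0, other scalings, no filter, doublets kept, resolution 2.0, at least 1000 UMIs, thinning to 1000 UMIs, Y-linked TG_PS19 nuclei and leaving out each PS19 library were the alternatives. The fit was tested on simulated data. Levels are CPM with exact 95% Poisson intervals, and a count of 0 allows up to 3 UMIs; both cover counting error only. Normalized CPM are CPM on TMM-scaled totals. All members were named, with, per comparison, up to 12 called pairs of smallest adjusted p from the lists and, per member, the 3 genes most alike over classes by Pearson correlation of log2(CPM + 10), among genes of at least 20 CPM in a class. Of the called pairs from the lists, 1 is not reported here.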

Additional observations from a re-analysis of the deposited data

Results flagged for a closer look

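Fyn and Mark4 had effects of opposite direction in different classes, in each case where an effect had an unadjusted p under 0.05 in edgeR and none was called after adjustment. For PS19 against WT, the log2 fold change of Fyn was −0.30 in astrocytes and 0.21 in dentate granule neurons. In each class both PS19 libraries lay on the same side of WT, which the choice of pairs by unadjusted p favours. Mark4 was 0.49 in dentate granule neurons and −0.71 in microglia in the same comparison, the latter on 18 to 41 UMIs per library. For TG_PS19 against PS19, Fyn was −0.24 in dentate granule neurons and −0.91 in microglia but 0.85 in fibroblasts, where TG_PS19 lay above both PS19 libraries. The differences between these classes were not tested. In the dentate and the microglial pairs alike, both PS19 libraries lay on the same side of the library compared. The microglial values rest on a class that PS19 and the other groups fill from different clusters.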

How the results depend on the processing

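No tau kinase gene was called for PS19 against WT or TG_PS19 against WT under any setting run. For TG_PS19 against PS19 the count of 0 became 1 with library totals, 1 with doublets kept and 1 with Y-linked TG_PS19 nuclei only, a setting that left 96 pairs to test. The edgeR fit with adjusted residual degrees of freedom was chosen after seeing the data and moved none of these counts. Calls in the 3 lists of other genes were 15, 13 and 10 and became 1, 0 and 0 with DESeq2, in the order of comparisons above. Of 378 alternative values of 33 results on the members, 357 kept direction and call and 17 reversed; of 395 for the lists, 273 kept both, 109 lost the call and 0 reversed.

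These 17 were in dentate granule neurons, in fold changes whose intervals included 0 apart from Mark4. Over all classes, thinning changed the sign of 26 of 91 member pairs in each comparison, of which only Mark4 in dentate granule neurons had an unadjusted edgeR p under 0.05 before thinning. Thinning to 1000 UMIs gave, for PS19 against WT, 0.24 (Cdk5), −0.39 (Cdk5r1), −0.062 (Gsk3b), −0.028 (Mark4) and −0.52 (Ttbk1), and for TG_PS19 against PS19 0.087 (Cdk5r1), −0.26 (Mark1) and 1.23 (Mark4). Library totals gave −0.018 (Dyrk1a, TG_PS19 against PS19) and −0.014 (Mark1, PS19 against WT). Mark1 for PS19 against WT was −0.026 without a filter on low counts and −0.044 with doublets kept. Ttbk1 for TG_PS19 against PS19 was −0.10 with Y-linked TG_PS19 nuclei only.

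Leaving out 1 PS19 library left no residual degrees of freedom, so that only fold changes without a test were obtained. For PS19 against WT they ran from −0.048 (without replicate 2) to 0.11 (without replicate 1) for Dyrk1a, from −0.0046 to 0.018 for Mark1 and from −0.047 to 0.42 for Ttbk1, and for TG_PS19 against PS19 from −0.078 to 0.40 for Ttbk1; these are the named values of members that changed sign. No paired analysis was possible because replicate numbers are given for PS19 only. On simulated data with randomly drawn changed genes, 2-fold changes were recovered for 67.2% of changed genes in dentate granule neurons and 47.8% in microglia. For 1.5-fold changes these shares were 37.3% and 10.4%. Depth was not varied in the simulation, so it does not show why the classes differed. Other classes were not simulated.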
